A study of Mus musculus with 33 samples.

Results

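The 10 genes described here encode proteins that coat lipid droplets or that make and break down the triglyceride stored in them: Plin2, Plin4, Plin5, Cidea, Cideb, Cidec, G0s2, Pnpla2, Pnpla3 and Mogat1. They were chosen by name, each was read from the probe set that carried its symbol alone and had the highest mean over all columns, and all 10 were found among the 18193 genes that were tested. No gene of the 10 changed by limma's test in any of the 5 comparisons between genotypes (adjusted p under 0.05). The count of members was 0 in 3aKO against wt, where 0% of all genes were called, 0 in 1KI against wt (0.242% of all genes), 0 in 1KI against 3aKO (0%), 0 in 3bKI against wt (2.07%) and 0 in 3bKI against 3aKO (9.18%), so that it stayed near the background. The values show a wide spread between livers of the same genotype for Pnpla3 and Mogat1, and in wt also for G0s2. The spread was narrow for Cideb and Pnpla2, and a few other genes of the same pathway changed in the tumours.

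A lipid droplet is a core of triglyceride and sterol ester under a single layer of phospholipid. Perilipins cover that layer and control the access of lipases, and proteins of the CIDE family bring droplets together and let lipid pass into the larger one. In hepatocytes the droplet is both a store and a source of fatty acid for oxidation and for the lipoproteins that the liver secretes. Lipolysis begins with the triglyceride lipase that Pnpla2 encodes, which Abhd5 activates and G0s2 inhibits. Fatty liver is marked by larger and more numerous droplets, and several of these genes are known as targets of the nuclear receptors of the PPAR family.

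RNA was taken from mouse liver at 12 months of age and hybridised to 21 Affymetrix arrays. Wildtype mice (wt) gave 7 of the samples and mice with an E2f3a knock-out (3aKO) gave 5. A further 5 came from E2F1 knock-in (1KI) and 4 from E2F3b knock-in mice (3bKI). All were on a mixed genetic background of FVB/NT, 129S1/Svlmj and C57BL/6NT mice. The wt and 3aKO samples were normal liver, while the 1KI and 3bKI samples were hepatocellular carcinomas that had arisen spontaneously, so that genotype and tumour cannot be told apart in those groups. The locus of the knock-in alleles and their zygosity are not given in the sources used here. The data hold 2 normalizations. Both contain all wt and 3aKO arrays, while 1KI is found only in normalization 1 and 3bKI only in normalization 2. Levels below are log2 values of normalization 1 unless normalization 2 is named, and a difference of 1 on that scale is a doubling. Nothing in the labels says more than a number about the origin of samples of the same group, so the p-values measure the spread between these samples. In whole tissue, fewer cells of a type and less RNA per cell cannot be told apart.

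Several features of the arrays bear on the results. The hepatocyte genes (9 of 10 measured) had a mean log2 level between 12.52 and 13.46 on every array of normalization 1, and Alb, albumin, had a mean of 14.94 in wt. In normalization 2 they had 12.93 to 13.14 in 3bKI, below every wt (13.19 to 13.40) and every 3aKO array (13.23 to 13.35). The 1KI arrays 3 and 4 stood apart from all others of normalization 1 on the first principal component, at 61.0 and 69.8 against -17.0 to 5.08, and had the lowest hepatocyte means, 12.98 and 12.52. The targeted genes were not called by limma. E2f3 was at -0.19 ± 0.11 in 3aKO, 0.10 ± 0.12 in 3bKI and 0.57 ± 0.13 in 1KI against wt (adjusted p = 0.700, 0.660 and 0.078), and E2f1 at 0.17 ± 0.11 in 1KI (adjusted p = 0.389). All 5 1KI arrays were above every wt and every 3aKO array for E2f3, and the difference from 3aKO was 0.77 ± 0.15 (adjusted p = 0.126). Which forms of E2f3 its probe set measures is not given in the sources used here, so this checks no label. The labels give no sex. Read from Xist and Y-linked genes, wt held 3 females and 4 males, 3aKO 3 and 2, 1KI 2 and 3, and 3bKI 3 females and 1 array that could not be read. In 3bKI the ratio of the 3' to the 5' probe set of beta-actin, a sign of RNA quality, was 0.70 to 0.87 on the log2 scale, below the 1.06 to 1.35 of 3aKO. The wt arrays spanned 0.65 to 1.37 in that normalization. Stellate cell genes had a mean of 7.96 to 9.11 in 3bKI and 8.04 to 8.42 in wt there, and of 8.35 to 8.98 in 1KI against 8.13 to 8.49 in wt in normalization 1. The part of these measures in the results below was not tested, except where a value without the arrays or with sex in the fit is given. For 3bKI, a fit with sex as a covariate leaves out array 2, whose sex could not be read, so that it holds 3 tumours, all female.

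The promoters shown first are those of Plin4 and Plin5, which are neighbours on the chromosome, and that of Pnpla3, the gene with the widest range between normal livers. On the reverse strand of chromosome 17 (GRCm38.p6), Plin4 lies at 56100587 to 56109948 and Plin5 at 56111597 to 56117606, with 1648 bases between them. RefSeq windows of 300 bases, from 250 before the start to 50 after it, matched 9 of the 10 genes, with 11 windows in all. Below are the windows of Plin4 (chr17:56109733-56110032, minus strand), Plin5 (chr17:56117499-56117798, minus strand, the more upstream of its 2 start sites) and Pnpla3 (chr15:84167566-84167865, plus strand). They are written 5′ to 3′ along the gene, with capitals for the CCAAT box (CCAAT, or ATTGG on the other strand), the GC box (GGGCGG, or CCGCCC on the other strand) and the nuclear receptor motif AGGTCA.
Plin4: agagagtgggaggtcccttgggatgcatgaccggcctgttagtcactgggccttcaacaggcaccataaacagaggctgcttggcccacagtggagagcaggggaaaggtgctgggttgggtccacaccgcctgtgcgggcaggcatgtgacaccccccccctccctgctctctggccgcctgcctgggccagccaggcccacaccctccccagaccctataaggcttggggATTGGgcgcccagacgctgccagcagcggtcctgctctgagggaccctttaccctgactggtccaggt
Plin5: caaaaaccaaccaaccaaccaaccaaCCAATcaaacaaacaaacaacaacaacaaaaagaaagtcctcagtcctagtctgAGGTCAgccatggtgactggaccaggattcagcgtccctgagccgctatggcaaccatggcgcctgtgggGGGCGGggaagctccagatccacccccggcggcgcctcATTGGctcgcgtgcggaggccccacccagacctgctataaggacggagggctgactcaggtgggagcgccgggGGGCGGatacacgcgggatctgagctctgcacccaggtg
Pnpla3: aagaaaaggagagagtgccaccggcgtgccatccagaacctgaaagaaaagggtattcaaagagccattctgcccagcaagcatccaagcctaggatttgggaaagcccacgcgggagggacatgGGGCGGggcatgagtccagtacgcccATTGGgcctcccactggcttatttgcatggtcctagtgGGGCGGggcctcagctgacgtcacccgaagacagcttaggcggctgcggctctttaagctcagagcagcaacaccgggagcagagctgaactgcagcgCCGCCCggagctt
Plin4 and Plin5 both held a CCAAT box on the other strand close to the start, its first base 18 bases before the start in Plin4 and 62 before it in Plin5. This holds for the Plin5 window shown, while that of the other Plin5 start site held no CCAAT box. AGGTCA was found in the Plin5 window and not in that of Plin4. On both strands, 5 of the 11 member windows held CCAAT and 7 held GGGCGG, against 37.4% and 35.7% of all 32851 windows. AGGTCA stood in 3 of the 11 and in 16.3% of all. The E2F motifs searched (TTTCCCGC, TTTGGCGC and TTTCGCGC) were in none of the member windows and in 1.84% of all. A TATA box (TATAAA) was in 1 member window, of Cideb, and in 13.6% of all, and the E-box CACGTG in 1, of Plin2, and in 7.15% of all. These are matches of letters only.

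Plin2, the perilipin that coats most droplets in hepatocytes, was bright in every sample. Its log2 level in wt ran from 12.39 over a median of 12.91 to 13.53. The 5 3aKO livers read 13.33, 13.21, 12.91, 13.08 and 13.05, all within the wt range. The 1KI tumours read 12.41, 13.55, 13.16, 13.73 and 13.00, so that 2 of them lay above every wt liver and none below. The difference from wt was 0.21 ± 0.24 (SE) in 1KI (limma adjusted p = 0.642) and 0.09 ± 0.24 in 3bKI (adjusted p = 0.860). The females of 1KI were at 12.41 and 13.00 and its males at 13.16 to 13.73, while in wt the females reached from 12.64 to 13.53. In 1KI the difference was -0.49 ± 0.29 with females only and 0.70 ± 0.20 with males only (adjusted p = 0.583 and 0.208), and 0.03 ± 0.27 without arrays 3 and 4. Both of these arrays were males, so the values by sex and without them are not separate checks.

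Plin4, a perilipin best known from fat cells and muscle, varied mostly through single livers. In wt the lowest value was 5.18, the median 5.67 and the highest 7.47, on array 4. The 3aKO livers were close together at 6.09, 5.92, 5.73, 5.86 and 5.68. In 1KI the levels read 5.69, 6.89, 5.20, 5.11 and 5.76, with array 2 far above the rest. Neither tumour group differed from wt beyond the spread: the log2 difference was -0.25 ± 0.39 in 1KI (limma adjusted p = 0.740) and -0.34 ± 0.36 in 3bKI (adjusted p = 0.624). In normalization 2 the same wt and 3aKO arrays read lower by a median of 0.473, the largest shift between the normalizations among the 10 genes, and Plin4 values are therefore compared only within a normalization. The adipocyte markers (7 of 10 measured) had a mean of 7.56 to 7.78 in wt and 7.53 to 7.75 in 3aKO. In 1KI it was 7.46 to 7.83. Its genes had very unlike levels: in wt Car3 was at 14.18 and Pck1 at 12.32, while Lep was at 3.48. Adipoq, the hormone adiponectin, was near the floor of the arrays, at means of 2.86, 2.91 and 2.80 in wt, 3aKO and 1KI. The mean of the list alone therefore does not measure fat cells.

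Plin5, which tethers droplets to mitochondria in tissues that oxidise fatty acid, had its lowest readings in the tumours. In wt the log2 level ran from 8.99 over a median of 10.12 to 11.10. The 3aKO livers read 10.66, 10.47, 10.39, 9.34 and 9.42. In 1KI the values were 9.14, 10.21, 7.62, 8.73 and 9.61, so that arrays 3 and 4 lay below every wt liver. The difference between 1KI and wt was -0.94 ± 0.42, with an unadjusted p of 0.043 that did not pass over all genes (limma adjusted p = 0.247). Without 1KI arrays 3 and 4 it was -0.35 ± 0.38 (adjusted p = 0.774). In normalization 2 the 3bKI tumours read 9.88, 8.70, 9.01 and 9.70 against 8.89 to 11.01 in wt, a difference of -0.60 ± 0.35 (adjusted p = 0.351). A second Plin5 probe set gave -0.78 ± 0.42 in 1KI (adjusted p = 0.338, over every probe set) and -0.53 ± 0.36 in 3bKI (adjusted p = 0.464).

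Cidea, a CIDE protein of brown fat that appears in fatty mouse liver, gave the lowest p of the 10 genes in every comparison with tumours. The wt livers spanned 3.87 to 4.31 with a median of 4.25, and the 3aKO livers read 4.28, 4.27, 4.06, 4.17 and 4.29. In 1KI the levels were 4.28, 4.77, 4.52, 4.84 and 4.43, and 4 of the 5 lay above every wt liver. The log2 difference was 0.40 ± 0.11 (limma adjusted p = 0.140), and 0.32 ± 0.13 without arrays 3 and 4 (adjusted p = 0.474). Between 1KI and 3aKO it was 0.35 ± 0.11 (limma adjusted p = 0.243), with 4 of the 5 tumours above every 3aKO liver. In normalization 2 the 3bKI tumours read 4.27, 4.59, 4.00 and 4.33 against 3.65 to 4.13 in wt, with 3 of the 4 above every wt liver. That difference was 0.33 ± 0.12 (adjusted p = 0.154), and against 3aKO it was 0.28 ± 0.12 (adjusted p = 0.153). Every level was low: Cidea and Cidec were among the 40% of genes with the lowest mean in both normalizations, where array values are least able to show a difference.

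Cidec (chromosome 6, 113424634 to 113435760, GRCm38.p6), the CIDE protein of large droplets that is also called Fsp27 in mice, had the largest positive change of the CIDE genes, and it was carried by 2 tumours. The wt livers spanned 3.69 to 4.35 with a median of 4.11, and 3aKO read 4.30, 3.74, 4.04, 4.02 and 3.87. In 1KI the levels were 3.88, 4.68, 6.05, 5.95 and 4.54. Arrays 3 and 4, the 2 males that stood apart on the first principal component, were thus far above all normal livers, and 4 of the 5 tumours exceeded every wt liver. The difference from wt was 0.99 ± 0.33, or a fold of 1.99, with an adjusted p of 0.170 in limma. It fell to 0.34 ± 0.19 without arrays 3 and 4 (adjusted p = 0.595), and it was -0.01 ± 0.20 in females only and 1.67 ± 0.32 in males only (adjusted p = 0.993 and 0.129). In normalization 2 the 3bKI tumours read 4.70, 4.10, 3.72 and 3.61 against 3.42 to 4.05 in wt, with a difference of 0.25 ± 0.19 (adjusted p = 0.494). Of the 7 adipocyte markers measured, 1 lay above 0 in 1KI against wt: Fabp4, a fatty acid carrier that endothelial cells also make, at 1.69 ± 0.63 (adjusted p = 0.194; chosen after its value was seen). The part of these markers in the Cidec values was not tested.

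Cideb, the CIDE protein of hepatocytes, which also takes part in lipidation of VLDL particles, had the narrowest range of the 10 over the 12 normal livers. The wt levels spanned 11.92 to 12.26 with a median of 12.10, and 3aKO read 11.99, 12.12, 11.96, 12.01 and 12.08. Among the tumours, 1KI read 11.95, 12.07, 11.92, 11.91 and 12.03, within or just under the wt range. The 95% interval of the difference from wt was -0.26 to 0.04 in 1KI, -0.17 to 0.26 in 3bKI and -0.20 to 0.09 in 3aKO. In normalization 2 the 3bKI tumours read 12.32, 12.00, 11.78 and 12.03, a wider range than the 11.83 to 12.14 of wt, and wider than that of Pnpla2 in the same tumours.

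**Figure D1:**
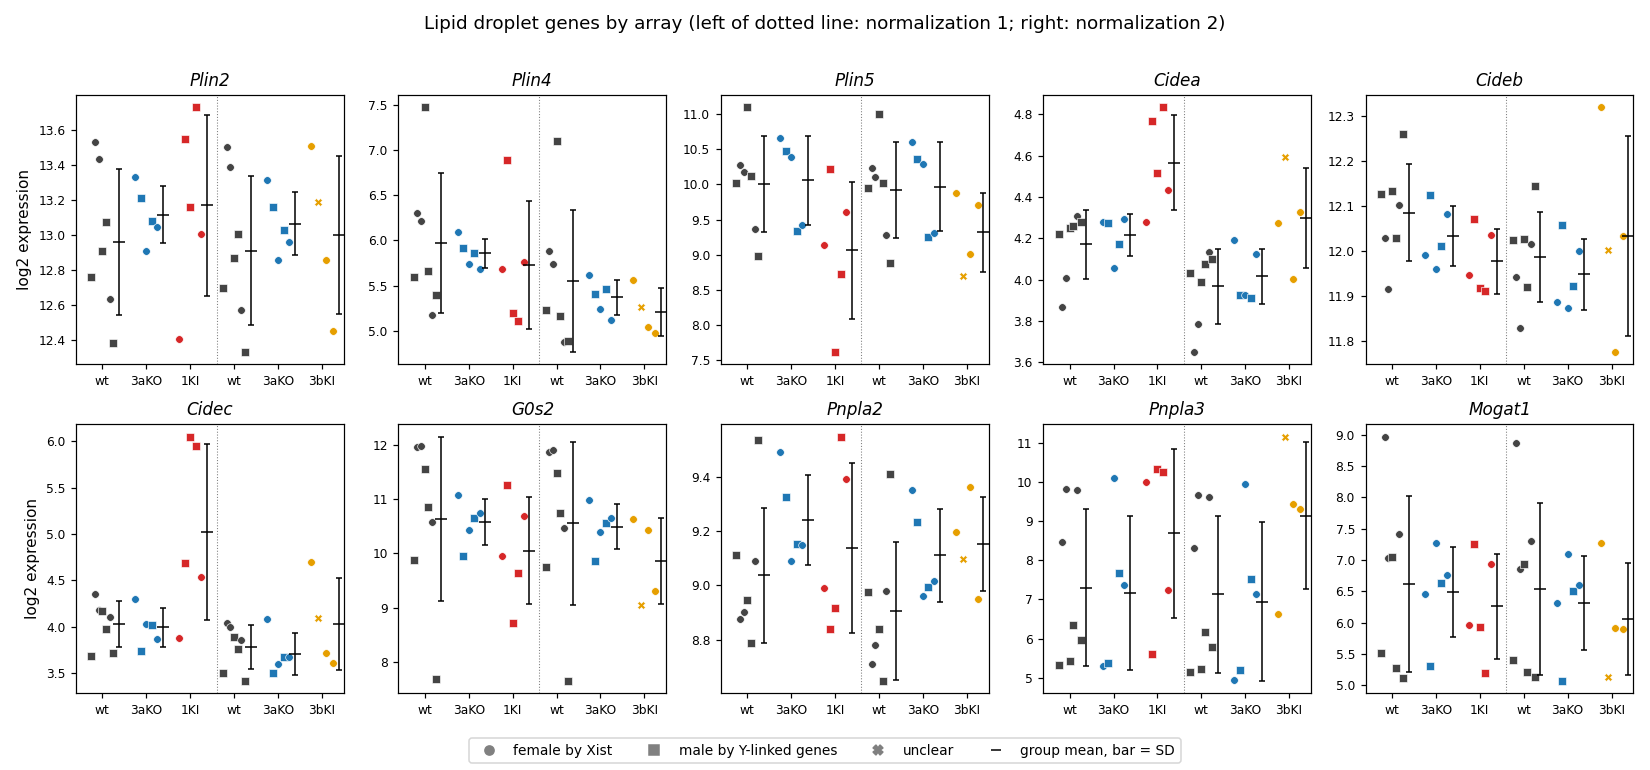
Log2 expression of the 10 genes on every array (1 point per array) in wt, 3aKO and 1KI (left of the dotted line, normalization 1) and in wt, 3aKO and 3bKI (right, normalization 2). The marker shape gives the sex read from Xist and Y-linked genes, the dash is the group mean and the bar its SD. The vertical scales differ between genes: Cideb covers a fraction of 1 log2 unit, while Pnpla3 covers more than 4 in wt alone.

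Pnpla2, which encodes adipose triglyceride lipase, also varied little. In wt it ran from 8.79 over a median of 8.95 to 9.54, and 3aKO read 9.49, 9.33, 9.09, 9.15 and 9.15. Values of 8.99, 8.84, 8.92, 9.55 and 9.39 were found in 1KI, and array 4 was the highest of all 17 arrays by a narrow margin. The 95% interval of the difference from wt was -0.23 to 0.43 in 1KI, -0.05 to 0.54 in 3bKI and -0.06 to 0.47 in 3aKO. A second Pnpla2 probe set, with a log2 mean of 3.86 over all columns, gave differences from wt between -0.13 and 0.10.

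G0s2, the inhibitor of that lipase (chromosome 1, 193272160 to 193273188), moved over a wide range in wt and a narrower one elsewhere. Its wt levels ran from 7.68 over a median of 10.85 to 11.98, and the lowest of them, array 7, lay more than 2 log2 units under the other 6. The 3aKO livers read 11.08, 9.95, 10.44, 10.66 and 10.74. The 1KI tumours read 9.95, 11.27, 8.72, 9.64 and 10.69, and the 3bKI tumours in normalization 2 read 10.64, 9.06, 10.43 and 9.30. All tumours lay inside the wt range. The difference from wt was -0.58 ± 0.68 in 1KI (limma adjusted p = 0.648) and -0.70 ± 0.70 in 3bKI (adjusted p = 0.611). Without arrays 3 and 4 the 1KI difference was -0.001 ± 0.79, and with females only it was -1.18 ± 0.43 in 1KI and -1.29 ± 0.45 in 3bKI (adjusted p = 0.451 and 0.295).

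Pnpla3 (chromosome 15, 84167776 to 84189521, GRCm38.p6), a droplet protein related to Pnpla2 whose human gene carries a well known variant linked to fatty liver, had the widest range of the 10. Its wt levels were 5.33 to 9.81 with a median of 6.35, and they fell into a low and a high set that followed sex. The 3 wt females read 8.46, 9.81 and 9.80, and the 4 wt males 5.33, 5.42, 6.35 and 5.96. In 3aKO the order did not hold, with females at 5.31, 10.10 and 7.37 and males at 5.37 and 7.67. The 1KI tumours read 9.99, 5.60, 10.33, 10.26 and 7.25, so that 2 of the 3 males were above every normal liver of either sex. In normalization 2 the 3bKI tumours read 6.62, 11.15, 9.44 and 9.32. The array of 11.15 was the one whose sex could not be read.

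No difference of Pnpla3 between genotypes passed. It was 1.38 ± 1.06 in 1KI against wt (limma adjusted p = 0.476), 2.00 ± 1.05 in 3bKI against wt (adjusted p = 0.305) and 2.19 ± 1.10 in 3bKI against 3aKO (adjusted p = 0.215). In 1KI the difference from wt was 0.31 ± 1.19 without arrays 3 and 4, and that from 3aKO, which was 1.52 ± 1.13 over all arrays, was 0.45 ± 1.22. In 3bKI the difference from wt was 1.33 ± 1.10 without array 2, the array of 11.15. With females only, the difference from wt was -0.74 ± 0.75 in 1KI and -0.73 ± 0.73 in 3bKI, and with males only it was 2.97 ± 1.06 in 1KI (adjusted p = 0.735, 0.729 and 0.263). The females-only value of 3bKI also lacks array 2, so its move from 2.00 joins the loss of that array with the loss of the wt males. The males-only value of 1KI rests on arrays 3 and 4, at 10.33 and 10.26. The remaining 1KI male, array 2, read 5.60, within the range of the wt males. Sex and those tumours thus cannot be told apart there.

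Mogat1, a monoacylglycerol acyltransferase that makes diacylglycerol, also had a wide range in wt. The wt levels were 5.11 to 8.97 with a median of 7.03, and 3aKO read 6.46, 5.31, 7.27, 6.64 and 6.76. The 1KI tumours read 5.97, 7.26, 5.93, 5.20 and 6.94, and the 3bKI tumours in normalization 2 read 7.27, 5.13, 5.91 and 5.90. All of these lay inside the range of wt. The difference from wt was -0.36 ± 0.63 in 1KI (limma adjusted p = 0.762) and -0.48 ± 0.67 in 3bKI (adjusted p = 0.722). It was 0.10 ± 0.74 in 1KI without arrays 3 and 4, and with females only it was -1.35 ± 0.55 in 1KI and -1.32 ± 0.55 in 3bKI (adjusted p = 0.481 and 0.368). The 3 wt females lay at 7.03 to 8.97 and the 4 males at 5.11 to 7.05, so that the sexes overlapped narrowly.

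Without the adjustment, 3, 2, 1 and 1 members passed in the tumour comparisons. At an unadjusted p under 0.05, 0 of the 10 passed in 3aKO against wt, where 3.62% of all genes were higher and 3.84% lower. In 1KI against wt Cidea and Cidec were higher (9.05% of all genes) and Plin5 was lower (10%). Cidea and Cidec were also the 2 members above 3aKO in 1KI (6% of all genes higher, 8.01% lower). In 3bKI the 1 member was Cidea, against wt (9.84% higher, 10.9% lower) and against 3aKO (13.4% higher, 15.7% lower). Groups without overlap were found for 0 members in each comparison, against 0.5%, 1.98%, 3.41%, 4.28% and 15% of all genes in the same order. The median log2 change of the members was -0.043, -0.0033, -0.08, 0.07 and -0.01, beside 0.0017, -0.03, -0.02, 0.01 and 0.03 over all genes. These comparisons share the wt or 3aKO arrays and are not independent of each other.

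**Figure D2:**
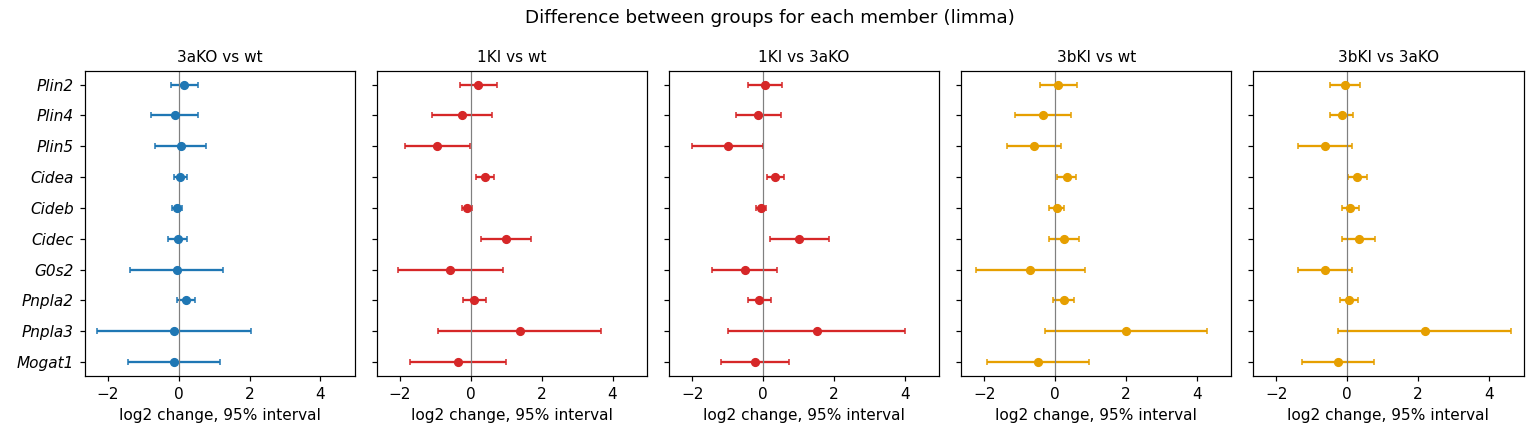
Log2 difference between the groups for each of the 10 genes (points) with its 95% interval (bars), from limma, in the 5 comparisons. The intervals of Cidea, Cideb and Pnpla2 are short, and those of Pnpla3 cross 0 in all 5.

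The difference between the sexes was then tested in the 12 normal livers, with genotype as a covariate. This test was chosen after the values had been seen, and the wt livers that showed the pattern are part of it. Pnpla3 was higher in females by 2.55 ± 0.74 (limma adjusted p = 0.0911) and Mogat1 by 1.57 ± 0.43 (adjusted p = 0.0752), and both missed the threshold. G0s2 was 1.08 ± 0.54 higher (adjusted p = 0.360). In all, 0 of 10 members and 2.53% of all genes were called, and in 3aKO the Pnpla3 values of the sexes overlapped. Whether an effect of genotype differed by sex was tested with an interaction term in the comparisons where both sexes were present, and the smallest adjusted p of a member was 0.780, for Plin2 and Cidec in 1KI against wt.

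**Figure D3:**
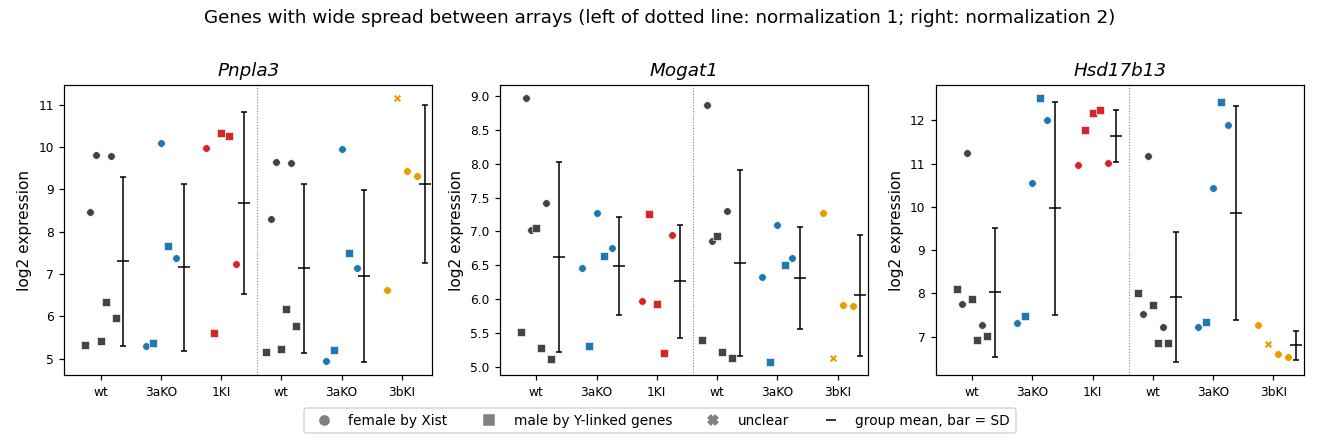
Log2 expression of Pnpla3, Mogat1 and Hsd17b13 on every array (1 point per array), with the sex read from Xist and Y-linked genes as marker shape, the group mean as a dash and the SD as a bar. For Pnpla3 the 3 wt females lie at 8.46 to 9.81 and the 4 wt males at 5.33 to 6.35, and for Hsd17b13 the 1KI arrays lie at 10.97 to 12.24 and the 3bKI arrays at 6.52 to 7.27.

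Over the 12 normal livers the highest level exceeded the lowest by 27.6-fold for Pnpla3, by 19.6-fold for G0s2 and by 14.6-fold for Mogat1. The G0s2 range rests on wt array 7, at 7.68 against 9.87 in the next lowest liver. In 3aKO alone G0s2 spanned 1.13 log2 units, less than the 1.33 of Plin5. Plin4 followed with 4.91-fold, Plin5 with 4.32-fold and Plin2 with 2.21-fold. The range was 1.68-fold for Pnpla2, 1.59-fold for Cidec, 1.36-fold for Cidea and 1.27-fold for Cideb. Ranges of low levels, such as those of Cidea and Cidec, are compressed on an array, so a small fold there does not show a steady gene.

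Some of the 10 genes varied together across the normal livers. Of the 45 pairs, 4 passed a two-sided permutation test of Pearson's r over the 12 livers after Benjamini-Hochberg adjustment, and 1 of them also passed by Spearman's rho. That pair was Cidec and G0s2 (r = 0.788, permutation adjusted p = 0.0274; rho = 0.832, permutation adjusted p = 0.0486). Its r was 0.766 without the 2 livers farthest from the Cidec median, 0.659 in the 6 females and 0.776 in the 6 males. The neighbours Plin4 and Plin5 had r = 0.753 (permutation adjusted p = 0.0280) and rho = 0.741 (permutation adjusted p = 0.125). For them r was 0.601 without the 2 farthest livers, 0.733 in females and 0.779 in males. Plin2 and G0s2 had r = 0.781 (permutation adjusted p = 0.0280), which fell to 0.481 without the 2 farthest livers and so rests in part on them, with 0.882 in females and 0.741 in males. Cidec and Mogat1 had r = 0.781 (permutation adjusted p = 0.0280), with 0.667 without the 2 farthest livers, 0.45 in females and 0.817 in males. The pairs were tested after the data had been seen, and all pairs share the same 12 arrays. Pairs of other genes were not tested, so the count has no background beside it. Cidec was dim and spanned only 3.69 to 4.35 in these livers, which limits both of its pairs.

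With the tumours included, Plin4 and Plin5 had r = 0.733 over the 17 arrays of normalization 1 and 0.697 over the 16 of normalization 2, which share the 12 normal livers. Cidec and G0s2 did not keep their relation, with r = -0.172 and 0.448.

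**Figure D4:**
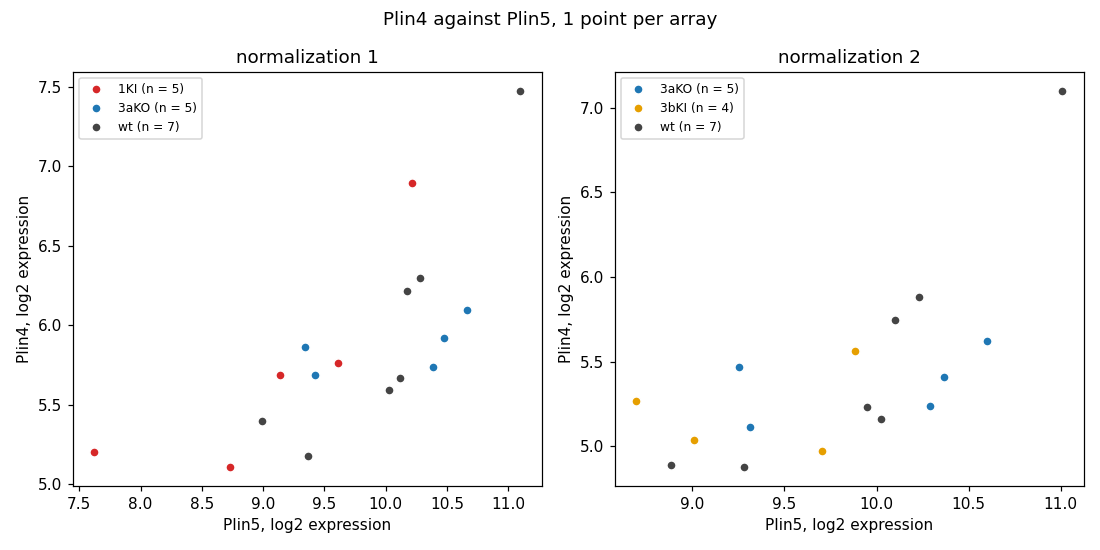
Log2 expression of Plin4 against Plin5, 1 point per array, in normalization 1 (left, 17 arrays) and normalization 2 (right, 16 arrays). The wt array with the highest values of both genes, 7.47 for Plin4 and 11.10 for Plin5 in normalization 1, lies at the upper right, and the 1KI array with 7.62 for Plin5 at the far left.

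The genes whose pattern was most like that of each member were named by a fixed rule, as the 2 genes with the highest Pearson's r in the poorer of the 2 normalizations (17 and 16 arrays, of which 12 are shared). For Plin5 these were Fam210b (r = 0.899 and 0.855) and Tefm (0.857 and 0.877), and Fam210b was also among those of Plin4 (0.740 and 0.733), with Dynlrb1 (0.742 and 0.749). Pnpla3 was closest to Npc2 (0.872 and 0.877), which carries cholesterol in lysosomes, and Asah1 (0.856 and 0.848), the acid ceramidase. Those of G0s2 were Rab30 (0.844 and 0.837) and C330018D20Rik (0.816 and 0.816), and those of Mogat1 Clstn3 (0.824 and 0.815) and Sema5b (0.789 and 0.838). For Plin2 they were Camk2d (0.762 and 0.763) and Btbd10 (0.693 and 0.695). Cidea was closest to Mrpl50 and Actn4 (at least 0.781), Cideb to Sema6c and 4931431B13Rik (at least 0.802), Cidec to Hdac7 and F2rl3 (at least 0.709) and Pnpla2 to Ubl7 and Plscr3 (at least 0.802). These r values describe the arrays and were picked as the highest of all genes.

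Other genes of droplets, lipases, triglyceride synthesis and export, fatty acid uptake and their regulators were read from 5 lists with 71 genes, of which 67 were measured. In 3aKO against wt 0 of the 67 were called in limma (0% of all genes), while 1 rose and 0 fell in 1KI against wt (0.242% of all genes called), 0 were called in 1KI against 3aKO (0%), 1 rose and 2 fell in 3bKI against wt (2.07%), and 2 rose and 10 fell in 3bKI against 3aKO (9.18%). Over all genes 199 rose and 178 fell in 3bKI against wt, and 531 rose and 1140 fell against 3aKO. The median log2 change of the 67 was 0.05, -0.06, -0.12, -0.17 and -0.17 in that order.

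Hsd17b13, a droplet enzyme of hepatocytes, was the 1 pathway gene called in 1KI against wt. The wt livers read 8.10, 7.74, 11.24, 7.87, 6.93, 7.26 and 7.01, so that array 3 was high and the other 6 low. The 3aKO livers split in the same way, at 7.31, 7.47, 10.54, 12.51 and 12.00. The 1KI tumours read 10.97, 11.77, 12.17, 12.24 and 11.02, and the 3bKI tumours in normalization 2 read 7.27, 6.83, 6.60 and 6.52. Hsd17b13 rose by 3.61 ± 0.63 in 1KI against wt (limma adjusted p = 0.0394), a fold of 12.2, and the groups overlapped through wt array 3. Without 1KI arrays 3 and 4 the difference was 3.23 ± 0.76 and missed the threshold (adjusted p = 0.173), and leaving out any of 6 wt arrays (adjusted p of 0.0721 to 0.0912) or any of 1KI arrays 2 to 5 (0.0544 to 0.0920) also ended the call, with differences of 3.43 to 3.76. Without wt array 3 the difference was 4.15 ± 0.29 (adjusted p = 0.000149). With males only it was 4.58 ± 0.31 (adjusted p = 0.00349), in a fit that also lacks wt array 3, a female, and keeps 1KI arrays 2, 3 and 4. With females only it was 2.25 ± 1.04 (adjusted p = 0.517). The mean of both probe sets of the gene gave 1.58 ± 0.33 (adjusted p = 0.0784).

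A second probe set of Hsd17b13 did not show the rise. It gave -0.45 ± 0.24 in 1KI against wt (limma adjusted p = 0.330, over every probe set). Its wt levels were 8.90 to 10.13 and its 1KI levels 8.45 to 9.66. In 3aKO it read 9.39, 9.85, 8.29, 5.66 and 5.39, lowest in the 3 livers where the first probe set was highest. The 2 probe sets disagree, and the level of the gene as a whole is uncertain.

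In 3bKI, Slc27a5, a fatty acid transport protein and bile acid CoA ligase of liver, fell by 0.54 on the log2 scale against wt (limma adjusted p = 0.0172) and by 0.53 against 3aKO (adjusted p = 0.0180). It read 13.02, 12.77, 12.63 and 12.85 in 3bKI, all below the 13.28 to 13.49 of wt. The difference was as large in 1KI against wt, at -0.54 ± 0.18, but was not called (adjusted p = 0.172). All 5 1KI tumours lay below every wt liver for Slc27a5, where 1.98% of all genes had groups without overlap. In 3bKI, Ces1f, a carboxylesterase, fell against wt by 0.80 (adjusted p = 0.0364), and Lpin3, a phosphatidate phosphatase of triglyceride synthesis, rose by 0.36 ± 0.08 (adjusted p = 0.0384). The call of Ces1f held in 11 of 21 alternatives and that of Lpin3 in 7 of 21. The hepatocyte markers were lower in the same tumours: 8 of the 9 measured lay below 0 against wt, with a median of -0.13, and 8 of 9 against 3aKO, with a median of -0.28, where 1, Cps1, fell by 0.43 (adjusted p = 0.0215). Their part in the falls given here and below was not tested.

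Against 3aKO, Apob, the protein on which VLDL is built, fell by 1.24 in 3bKI (limma adjusted p = 0.00398). The tumours read 11.44, 11.99, 11.50 and 11.73 and the 3aKO livers 13.00, 13.01, 12.82, 12.69 and 13.00, without overlap. The wt livers spanned 11.34 to 13.15 and overlapped with the tumours. Lpl, lipoprotein lipase, rose by 2.39 ± 0.59 against 3aKO (adjusted p = 0.0376). It read 9.20, 12.64, 10.64 and 9.68 in the tumours and 7.66 to 8.62 in 3aKO, while wt array 7 reached 10.84. Macrophage markers (10 of 10 measured), a cell type that makes Lpl, had a mean of 8.89 to 10.12 in 3bKI, 8.40 to 9.40 in 3aKO and 8.19 to 9.08 in wt, and their part in the Lpl values was not tested. Without 3bKI array 2, the highest for Lpl, Lpl was at 1.69 ± 0.33 (adjusted p = 0.0302) and Apob at -1.34 ± 0.11 (adjusted p = 0.00182). With sex as a covariate, over the 3 remaining tumours, Lpl was at 1.62 ± 0.38 (adjusted p = 0.0882) and Apob at -1.38 ± 0.13 (adjusted p = 0.00733).

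The other calls named in 3bKI against 3aKO, up to 3 per list, were smaller. Gpat4, the acyltransferase of the first step of glycerolipid synthesis, fell by 0.55 (limma adjusted p = 0.0221) and Fitm2, which partitions triglyceride into droplets, by 0.68 (adjusted p = 0.0320). The phospholipases Pnpla8 and Pnpla6 fell by 0.64 and 0.41 (adjusted p = 0.0398 and 0.0383). Mogat2, the relative of Mogat1, rose by 0.38 ± 0.10 (adjusted p = 0.0458). Among regulators Foxo1, Insr, the insulin receptor, and Cebpa fell by 0.60, 0.50 and 0.43 (adjusted p = 0.0166, 0.0388 and 0.0270). The call of Foxo1 held in 16 of 19 alternatives and that of Gpat4 in 12. Those of Fitm2, Pnpla8 and Cebpa held in 8 of 19, that of Insr in 7, and those of Mogat2 and Pnpla6 in 6.

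Genes of these lists that were named for the lowest p without a call gave values of some size in tumours. Abhd5, the activator of Pnpla2, was at 1.10 ± 0.40 in 1KI against wt (limma adjusted p = 0.192). Its 1KI levels were 8.80, 8.73, 10.52, 11.21 and 8.67, with arrays 3 and 4 again apart from the others. Cav1, caveolin of the droplet and cell surface, was at 1.74 ± 0.53 in 1KI against 3aKO and Lpl at 1.86 ± 0.56 (adjusted p = 0.238 for both). Fitm1 was at -1.13 ± 0.28 in 3bKI against wt (adjusted p = 0.0609). Ppara, the nuclear receptor of fatty acid oxidation, was at -0.47 ± 0.17 in 3aKO and -0.58 ± 0.22 in 1KI against wt (adjusted p = 0.641 and 0.200).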

How the data were processed

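Liver RNA of 21 samples (7 wt, 5 3aKO, 5 1KI, 4 3bKI) was measured on Affymetrix arrays, from 5 ug of total RNA per the labels. The deposited values are log2 expression per probe set, made by the authors in 2 normalizations (33 columns) by a method not given in the sources used here. Of 45101 probe sets, 64 were controls, and 34945 of the rest had 1 gene symbol, 932 several and 9160 none. Each of 18193 genes was read from its probe set with 1 symbol and the highest mean. In limma 3.58.1 (lmFit, eBayes; R 4.3.3) a fit held only the 2 groups compared, and its two-sided p-values had Benjamini-Hochberg adjustment over all genes and a threshold of 0.05. Errors after a difference are moderated standard errors. The fits were also run on simulated data in which both groups had the same spread. Tumours and normal livers need not share a spread, and the outcome of that run is not used here. Sex came from Xist, split at a log2 level of 10, and from Eif2s3y, Kdm5d and Uty, whose average was split at 5. Correlations used 100000 permutations (numpy 2.4.6). Promoters came from RefSeq (GRCm38.p6).

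The members, lists and tests were chosen with earlier results of these data known. Named genes were all 10 members and, from each list and comparison, the called genes of largest change (up to 3) or else the gene of lowest p. For each member the 2 most similar genes by Pearson's r were named. The tests of females against males and of sex by genotype, of the second Hsd17b13 probe set and of member pairs were added after seeing the data. The number of arrays limits the precision.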

Additional observations from a re-analysis of the deposited data

Results flagged for a closer look

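For Hsd17b13 the 2 kinds of tumour lay on opposite sides of the mean of the controls. The gene was added by name to the members in this check and had already been called higher in 1KI against wt. Its 1KI side is therefore no new result. Of the 22 pairs of gene and control group checked, none of a member met the rule. Every 1KI array lay above the wt mean, by 2.95 to 4.22 and on average by 3.61 on the log2 scale, and every 3bKI array lay below it, with a mean of -1.11. Against the 3aKO mean the averages were 1.67 in 1KI and -3.06 in 3bKI, again with every array on the side of its group. The control arrays were themselves split and overlapped with the tumours: 3bKI array 1 (7.27) lay above 3 wt arrays and 1 3aKO array, and 3aKO array 4 (12.51) above every 1KI array. The 3bKI differences were not called by limma (adjusted p = 0.370 against wt and 0.0910 against 3aKO). The difference between the tumour groups was not tested, because they lie in separate normalizations. A second probe set of the gene gave -0.45 in 1KI and -0.36 in 3bKI against wt.

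Of 60 groups of the 10 genes examined for a single array far from the others, 0 held one, where chance alone gives about 1 in 20.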

How the results depend on the processing

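The count of members called was 0 in all 5 comparisons and under every alternative run: quantile normalization, centring, a filter on dim genes (which left 8 members in normalization 1 and 7 in normalization 2), averaged probe sets, adjustment over every probe set, a fit of all 3 groups, eBayes with trend and robust, a replicate block, a sex covariate, 1 sex only, the second normalization for 3aKO against wt, without 1KI arrays 3 and 4, and leaving out each array. The smallest adjusted p of a member in any of these was 0.0563, for Cidea in 1KI against wt in the fit of 3 groups. Males only could not be run for 3bKI, where no array was read as male. The sign of some member differences turned, among them those of Pnpla3 (2.00 in 3bKI and 1.38 in 1KI against wt) and Cidec (0.99 in 1KI against wt). With quantile normalization, 1KI against 3aKO gave 0.024 for Cideb, 3aKO against wt gave 0.015 for Cidec and 3bKI against 3aKO gave 0.044 for Plin2. Without 1KI arrays 3 and 4, 1KI against 3aKO gave 0.062 for G0s2, 0.24 for Mogat1, -0.13 for Plin2, 0.25 for Plin4 and 1KI against wt gave 0.10 for Mogat1, 0.14 for Plin4. With males only, 1KI against 3aKO gave 0.16 for Mogat1, 1KI against wt gave 0.39 for Mogat1 and 3aKO against wt gave -0.029 for Cidea, 0.32 for G0s2, 0.24 for Mogat1, -0.15 for Plin5, 0.76 for Pnpla3. With sex as a covariate, 1KI against 3aKO gave -0.028 for Plin2 and 3bKI against wt gave -0.22 for Plin2, -0.73 for Pnpla3. The 3bKI tumours in that fit were all female, so its differences equal those with females only. For 3bKI these are no separate checks, although both are counted among the alternatives. With females only, 1KI against 3aKO gave -0.39 for Plin2, 1KI against wt gave -0.0063 for Cidec, -0.49 for Plin2, -0.74 for Pnpla3, 3aKO against wt gave -0.10 for Plin2 and 3bKI against wt gave -0.22 for Plin2, -0.73 for Pnpla3. With the replicate block, 3aKO against wt gave -0.025 for Plin2, -0.28 for Plin5, 0.091 for Pnpla3 and 3bKI against wt gave -0.11 for Plin2. With each array centred on its median, 3bKI against 3aKO gave -0.017 for Pnpla2 and 3bKI against wt gave -0.028 for Cideb. Leaving out each array in turn, the log2 difference turned sign for some members. The ranges were in 1KI against 3aKO Mogat1 from -0.52 to 0.038, Plin2 from -0.086 to 0.24, Plin4 from -0.42 to 0.027. The ranges were in 1KI against wt Mogat1 from -0.61 to 0.030, Plin4 from -0.54 to 0.0045, Pnpla2 from -0.00093 to 0.19. The ranges were in 3aKO against wt Cidea from -0.0059 to 0.085, Cidec from -0.11 to 0.028, G0s2 from -0.55 to 0.16, Mogat1 from -0.39 to 0.26, Plin4 from -0.25 to 0.13, Plin5 from -0.12 to 0.23, Pnpla3 from -0.87 to 0.33. The ranges were in 3bKI against 3aKO Cideb from -0.011 to 0.17, Mogat1 from -0.67 to 0.045, Plin2 from -0.23 to 0.12, Pnpla2 from -0.029 to 0.11. The ranges were in 3bKI against wt Cideb from -0.048 to 0.13, Plin2 from -0.077 to 0.27. The correlation of same-numbered samples was over 0.1 for 2 of 5 pairs in 3aKO against wt and 0 of 5 in 1KI against wt. It was over 0.1 for 2 of 5 in 1KI against 3aKO, 2 of 4 in 3bKI against wt and 3 of 4 in 3bKI against 3aKO. Samples of different number were not compared, so these values cannot show whether samples of the same number belong together. With the replicate block 0 members were called in each comparison, and the share of all genes called was 0.0055% in 1KI against wt and 0.275% in 3bKI against 3aKO, beside 0.242% and 9.18%. With sex as a covariate that share was 0.511% in 1KI against wt. In 3bKI that fit also left out array 2, and the share was 0.368% against wt and 0.797% against 3aKO, beside 0.901% and 5.15% without array 2 alone and 2.07% and 9.18% over all arrays. In the fit of 3 groups the share was 1.72% in 1KI against wt, 5.47% in 3bKI against wt and 11% in 3bKI against 3aKO. With centring, 3bKI against 3aKO held 328 genes called higher and 1638 lower, where the fit as reported held 531 and 1140, and against wt 197 and 548, where it held 199 and 178. Of the pathway genes, Apob in 3bKI against 3aKO was called in 19 of 19 alternatives, Slc27a5 in 16 of 19 there and 18 of 21 against wt, Hsd17b13 in 1KI in 9 of 24 Lpl in 9 of 19, Ces1f in 11 of 21 and Lpin3 in 7 of 21. Signal over background limits what an array shows, and Cidea and Cidec were among the dim genes that the filter left out.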
